A study of Homo sapiens with 12 samples.

Results

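The lysosomal genes described here are 37 transcripts, chosen by name out of the 58735 genes in the count table: 14 hydrolases of glycans and glycosaminoglycans, 7 lipid and sphingolipid hydrolases with their activators, 1 protease and 1 thioesterase, 8 membrane proteins, 4 subunits of the proton pump and 2 transcription factors. The choice was made with earlier results of these data known, and each symbol matched 1 Ensembl identifier. RNA-seq was carried out on FDX2-iKO ES2 cells, a human ovarian carcinoma line in which the endogenous FDX2 gene, encoding a mitochondrial ferredoxin of iron-sulfur cluster assembly, had been knocked out by genome editing in all 4 conditions. An HA-tagged FDX2 that the guide cannot cut, under a TetON promoter, replaced it as long as doxycycline (Doxy) was in the medium. The conditions were 20% O2 + Doxy and 20% O2 wo Doxy, cultured for 6 days, and 3% O2 + Doxy and 3% O2 wo Doxy, cultured for 4 days at 20% O2 and then 3 days at 3% O2, with 3 libraries each. The cells had been cloned by limiting dilution, so the data describe 1 clone. Absence of FDX2 and absence of Doxy itself cannot be told apart in this design, and the oxygen comparisons also differ by 1 day of culture. The submitters call the 3 libraries of a condition biological replicates; nothing further says how they were separated, so the p-values measure the spread between these libraries.

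Lysosomes break down macromolecules with acid hydrolases, which are tagged with mannose 6-phosphate in the Golgi and carried to the organelle. The V-ATPase pumps protons into the lumen, and heavily glycosylated membrane proteins such as LAMP1 and LAMP2 line the inner face of the membrane. Many of these genes carry a CACGTG E-box, in an extended form called the CLEAR element, which TFEB and its relative TFE3 bind; both factors stay in the cytoplasm while mTORC1 is active. GLB1 encodes the acid beta-galactosidase whose activity at near-neutral pH is used as a stain for senescent cells.

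The E-box was searched on both strands in promoter windows of RefSeq (GRCh38.p14), which held 26 of the 37 genes. CACGTG was found in 8 of the 26 (30.8%) and in 8.77% of all 27305 genes with a window, TCACGTG in 7 (26.9%, against 4.49%) and the palindrome TCACGTGA in 5 (19.2%, against 1.18%), the longer motifs being contained in the shorter ones. The lysosomal genes had more windows each than the average gene (1.58 against 1.29), which raises the chance of a match. The stretches below show elements of 5 genes, read 5′ to 3′ on the strand of the gene, with the E-box and its matching flanking bases in capitals. They are examples of the extended motif. A second TCACGTGA of GAA and of MCOLN1, nearer the start, and a further TCACGTGA of LAMP1 next to its start are not printed. The elements of CLN3, ARSB and CD63 are not printed either.
LAMP1, chr13:113297030-113297118, plus strand, 4 elements from 193 to 143 bases before the start: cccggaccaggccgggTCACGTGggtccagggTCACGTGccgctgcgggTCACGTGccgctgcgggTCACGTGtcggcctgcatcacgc
LAMP1, chr13:113297194-113297233, plus strand, 29 bases before the start: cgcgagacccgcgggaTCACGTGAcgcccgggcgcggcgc
GAA, chr17:80101493-80101522, plus strand, 77 bases before the start: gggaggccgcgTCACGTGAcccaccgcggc
MCOLN1, chr19:7522566-7522605, plus strand, 42 bases before the start: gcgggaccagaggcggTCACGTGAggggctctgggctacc
NEU1, chr6:31862926-31862964, minus strand, 127 bases before the start: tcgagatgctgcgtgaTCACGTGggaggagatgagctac
ATP6V0D1, chr16:67481199-67481228, minus strand, 60 bases before the start: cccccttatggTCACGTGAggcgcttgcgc
A match describes these letters in these windows and nothing more. LAMP2, LAMP3, HEXA, MANBA, NAGLU, SGSH, ARSA, ASAH1, PSAP, ATP6V1H and ATP6V1A were not in the promoter table.

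The 12 libraries held 24958386 to 34313637 counts. Levels are given as CPM, the counts scaled to library size with TMM factors, and differences as log2 fold changes with the standard error (SE), tested with edgeR's quasi-likelihood test and adjusted over all 16891 genes tested; a gene was called at an adjusted p under 0.05. FDX2 itself had only 2 to 13 reads in a library (20% O2 + Doxy 5, 2 and 6; 20% O2 wo Doxy 9, 13 and 4; 3% O2 + Doxy 2, 4 and 12; 3% O2 wo Doxy 7, 7 and 5), too few to check the labels. Of the markers for ovarian epithelium, KRT7 (416.5 to 676.9 CPM), KRT8, KRT18 and PAX8 (5.59 to 19.3 CPM) were present, EPCAM, CDH1, KRT19 and WT1 had at most 8 reads in a library, and MUC16 had none. VIM reached 2065 to 4176 CPM, and the summed mesenchymal markers took 2980 to 3096 CPM in 20% O2 wo Doxy, 3510 to 4023 CPM in 20% O2 + Doxy, 3987 to 5036 CPM in 3% O2 + Doxy and 3644 to 4203 CPM in 3% O2 wo Doxy. The summed endothelial markers, nearly all CDH5 (656 to 1412 reads), were 22.1 to 28.5 CPM in 20% O2 + Doxy, 26.2 to 27.0 CPM in 20% O2 wo Doxy, 28.7 to 36.8 CPM in 3% O2 + Doxy and 40.1 to 51.6 CPM in 3% O2 wo Doxy. Apart from CD83, the genes of the macrophage and dendritic list had at most 14 reads in a library (CSF1R and CD163), and PTPRC at most 2. The sum of the macrophage and dendritic list, most of it CD83 (80 to 185 reads, 3.17 to 5.44 CPM), was lower in 20% O2 wo Doxy (4.14 to 4.84 CPM) than in 20% O2 + Doxy (5.54 to 5.76 CPM), as were the summed epithelial markers (846.6 to 902.8 CPM in 20% O2 wo Doxy, and up to 1419 CPM in the other conditions). The part of these markers in the results was not tested.

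Of the 12 libraries, 3 stood apart from the rest of their condition, with an SD of log2 deviations over all genes above 0.18 against 0.0622 to 0.146 in the other 9: 20% O2 + Doxy replicate 1, 3% O2 + Doxy replicate 3 and 3% O2 wo Doxy replicate 1. The GC trend was taken on the deviation from the mean of all 12 libraries, so it also holds differences between conditions. In 20% O2 + Doxy replicate 1 and 3% O2 + Doxy replicate 3 it rose by 0.17 and 0.19 log2 units per 10 points of transcript GC. In 3% O2 wo Doxy it rose by 0.18 in replicate 2, beside 0.025 and 0.056 in replicates 1 and 3. It fell in all 3 libraries of 20% O2 wo Doxy (-0.099, -0.086 and -0.15). The remaining libraries with Doxy were at -0.126 to -0.044. The GC-rich lysosomal genes GAA, NAGLU, ARSA, SGSH and IDUA were all high for their condition in the 3 libraries with a rise of 0.17 to 0.19. GAA measured 101.5 CPM in 20% O2 + Doxy replicate 1 and 69.7 and 61.7 CPM in replicates 2 and 3. The submitters state that 1 of the paired read files of 20% O2 + Doxy replicates 1 and 2 was lost, with the counts kept. Counts of called genes are therefore also given with the 3 libraries that stood apart left out, a choice made after the data were seen, and with each library corrected for GC content. The first of these settings removed 3% O2 + Doxy replicate 3 but kept 3% O2 wo Doxy replicate 2. It also kept the 3 libraries of 20% O2 wo Doxy, where the trend fell. It therefore did not take the GC trend out of the comparisons that use either condition without Doxy.

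**Figure D1:**
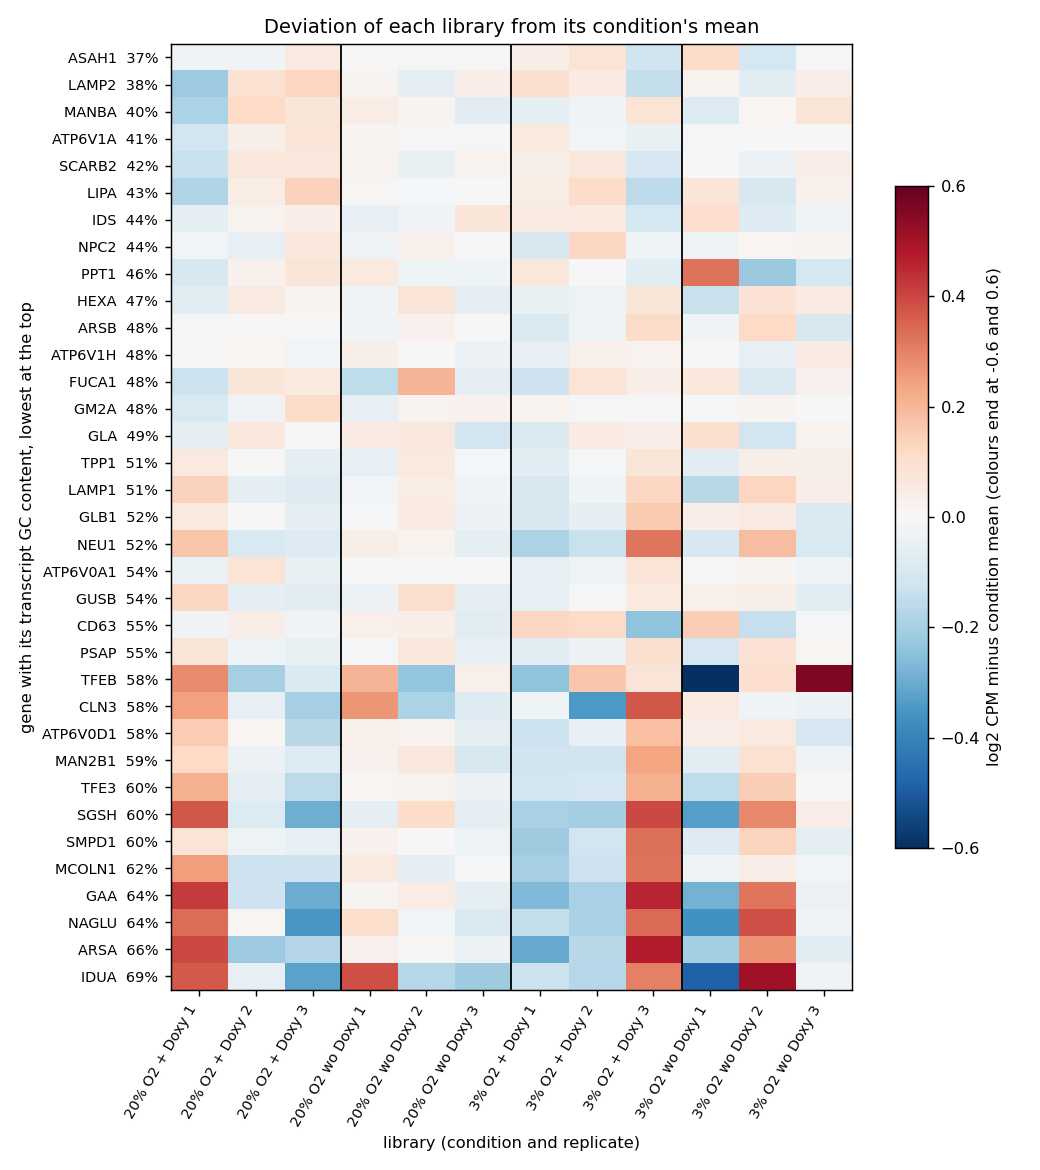
Deviation of each of the 12 libraries (columns) from the mean log2 CPM of its condition, for the 35 tested lysosomal genes (rows, ordered by transcript GC content, lowest at the top); red is above and blue below the mean. The GC-rich genes at the bottom are red in 20% O2 + Doxy 1, 3% O2 + Doxy 3 and 3% O2 wo Doxy 2 and mostly blue or near 0 in the other libraries of those 3 conditions.

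Per kilobase of exon, the levels of the 37 genes spanned from 134.2 CPM per kb for PSAP, the precursor of the saposins that present sphingolipids to their hydrolases, to 0.00349 for LAMP3, a LAMP relative of dendritic cells. CD63, a tetraspanin of late endosomes, followed at 92.0, LAMP1 at 48.6 and TFE3 at 34.8. TFEB was near the bottom at 0.0767 CPM per kb, with 7 to 21 reads in a library. CD68 (2 to 7 reads) and LAMP3 (0 to 2 reads) fell below the count filter, so 35 genes were tested. On GRCh38 with GENCODE 29, the genes the results turn on lie at chr11:6612763-6619485 (TPP1), chr14:74476192-74494177 (NPC2), chr10:71816298-71851375 (PSAP), chr15:72340919-72376476 (HEXA), chr3:32996608-33097230 (GLB1) and chrX:120427827-120469365 (LAMP2), all on the minus strand, and counts were taken over the exons of each. The 37 genes together took 2314 to 2445 CPM in 20% O2 + Doxy and 3017 to 3134 CPM in 20% O2 wo Doxy, and 2449 to 2627 CPM and 2777 to 2890 CPM at 3% O2 with and without Doxy. These sums did not overlap between the Doxy conditions at either oxygen level. In bulk RNA, fewer cells of a type and less RNA per cell cannot be told apart.

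At 20% O2, FDX2 loss was accompanied by higher levels of 14 of the 35 lysosomal genes, and none was called lower. The called genes included enzymes of protein, sphingolipid and glycosaminoglycan breakdown and LAMP2, whereas GLB1, LAMP1, TFEB and the other E-box genes printed above apart from NEU1 were not called. The share called higher was 40%, beside 17.6% of all genes tested, and the share called lower was 0, beside 17.7%. The set was chosen with earlier results of these data known, so these shares are a description only. The median log2 fold change was 0.16 over the 35 genes and 0.01 over all genes. Of the 35 genes tested, 7 were called and differed by at least 1.5-fold, beside 13.6% of all genes tested in either direction. DESeq2 called the same numbers, 14 higher and 0 lower, and at an unadjusted p under 0.05 edgeR gave 15 higher and 1 lower.

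TPP1, a tripeptidyl peptidase that removes tripeptides from the ends of proteins, differed most. It measured 108.5, 104.4 and 100.2 CPM in 20% O2 + Doxy and 209.3, 225.4 and 215.7 CPM in 20% O2 wo Doxy. Every library without Doxy was thus above every library with it, and the log2 fold change was 1.05 (SE 0.0561, adjusted p = 4.2e-07); 14.4% of its exonic bases are shared with other annotated genes. NPC2, which hands cholesterol from the lumen to the membrane protein NPC1, measured 16.8, 16.4 and 17.7 CPM with Doxy and 30.2, 31.2 and 30.4 CPM without it (log2 fold change 0.85, SE 0.0622, adjusted p = 2.9e-06). PSAP measured 359.1, 335.2 and 330.5 CPM with Doxy and 552.4, 582.7 and 537.9 CPM without it (log2 fold change 0.71, SE 0.0632, adjusted p = 1.2e-05). For both genes the conditions were far apart relative to the spread of their libraries.

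Among the glycan and glycosaminoglycan hydrolases, 5 of 14 were called, all higher. HEXA, the alpha subunit of beta-hexosaminidase, measured 40.4, 43.8 and 42.7 CPM in 20% O2 + Doxy and 67.0, 71.7 and 65.2 CPM in 20% O2 wo Doxy (log2 fold change 0.68, SE 0.0684, adjusted p = 2.7e-05). The others were IDS, iduronate-2-sulfatase (0.64), NEU1, a sialidase (0.55), MANBA, beta-mannosidase (0.51), and IDUA, alpha-L-iduronidase (0.85, SE 0.28, adjusted p = 0.036). IDUA had only 47 to 129 reads in a library and the highest transcript GC of the set (69.3%), and its call was lost when any of 4 libraries was left out (20% O2 + Doxy replicate 2 or 3, 20% O2 wo Doxy replicate 1 or 2). HEXA, IDS, MANBA and IDUA share 11.3% to 17.4% of their exonic bases with other annotated genes, so part of their reads may have been assigned elsewhere.

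GLB1 was not called in any of the 5 comparisons. It measured 79.8, 76.6 and 73.9 CPM in 20% O2 + Doxy, 82.0, 85.6 and 80.6 CPM in 20% O2 wo Doxy, 78.2, 80.3 and 93.3 CPM in 3% O2 + Doxy, and 89.2, 89.6 and 81.5 CPM in 3% O2 wo Doxy. The 3 libraries without Doxy at 20% O2 were above the 3 with Doxy, by a margin smaller than the spread within each condition. The log2 fold change was 0.11 at 20% O2 (SE 0.0714, 95% interval -0.05 to 0.27, adjusted p = 0.27) and 0.05 at 3% O2 (SE 0.0714, 95% interval -0.11 to 0.21, adjusted p = 0.73). The interval at 20% O2 lies below the intervals of HEXA, IDS and MANBA. It overlaps those of NEU1 (0.26 to 0.84) and IDUA (0.23 to 1.46). These 5 genes are the ones that were called, and their difference from GLB1 was not tested. Under 16 alternative settings the value at 20% O2 stayed between 0.049 and 0.125, with no call. The other uncalled hydrolases of the group ranged from -0.21 for NAGLU to 0.23 for MAN2B1, a lysosomal alpha-mannosidase; GAA, the acid alpha-glucosidase, had a log2 fold change of 0.19 with an SE of 0.23.

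Of the 7 lipid hydrolases and activators, 3 were called, all higher: NPC2, PSAP and ASAH1, the acid ceramidase. ASAH1 measured 36.3, 36.3 and 38.4 CPM with Doxy and 58.4, 58.0 and 58.4 CPM without it, with a log2 fold change of 0.65 (SE 0.0682, adjusted p = 3.5e-05). GM2A, the activator that lifts GM2 ganglioside out of the membrane for HEXA, differed from these. It measured 25.2, 26.4 and 28.9 CPM with Doxy and 23.5, 24.6 and 24.7 CPM without it, a log2 fold change of -0.15 that was not called (adjusted p = 0.066) but was called lower when 20% O2 + Doxy replicate 1 was left out (-0.20, adjusted p = 0.02) and after the GC correction (-0.24, adjusted p = 0.0018). LIPA, the acid lipase, SMPD1, the acid sphingomyelinase, and ARSA, which desulfates sulfatide, were not called (0.14, 0.13 and -0.12). PPT1, a thioesterase that strips palmitate from proteins, was at -0.02, with 23.4% of its exonic bases shared with CAP1 on the opposite strand.

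The membrane proteins divided: LAMP2, CD63 and SCARB2, a lysosomal membrane glycoprotein, were called higher (0.54, 0.52 and 0.26), and LAMP1, MCOLN1 and CLN3 were not. LAMP2 measured 77.0, 95.3 and 98.0 CPM in 20% O2 + Doxy and 132.8, 126.2 and 135.2 CPM in 20% O2 wo Doxy (SE 0.0911, adjusted p = 0.00091), with no overlap. LAMP1 measured 281.7, 246.5 and 242.6 CPM with Doxy and 282.9, 294.6 and 280.7 CPM without it. The first library with Doxy lay among those without, and the log2 fold change of 0.15 (SE 0.086, 95% interval -0.03 to 0.34) was not called (adjusted p = 0.19). MCOLN1, the calcium channel of the lysosomal membrane, measured 22.9, 17.7 and 17.7 CPM with Doxy and 22.3, 20.7 and 21.4 CPM without it, again with that same library high (0.14, SE 0.135, adjusted p = 0.46). The SCARB2 call was lost without any 1 of the 3 libraries of 20% O2 wo Doxy.

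Of the 4 V-ATPase subunits, ATP6V1A, the catalytic subunit, and ATP6V0A1 were called higher by 0.28 and 0.24, and ATP6V0D1 and ATP6V1H were at -0.02 and -0.04. Neither transcription factor was called. TFE3 measured 157.2, 129.9 and 121.6 CPM in 20% O2 + Doxy and 161.2, 161.8 and 156.0 CPM in 20% O2 wo Doxy, where only the first library with Doxy reached the level without it (0.23, SE 0.114, adjusted p = 0.15). TFEB measured 0.607, 0.435 and 0.47 CPM with Doxy and 0.513, 0.379 and 0.455 CPM without it, which at this depth left a 95% interval of -0.86 to 0.53. Their mRNA says nothing of whether the proteins were in the nucleus.

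Leaving out the 3 libraries that stood apart raised the count at 20% O2 to 21 (20 higher, and GM2A lower), while the share of all genes called rose to 21.1% higher and 27.1% lower. LAMP1 (0.19, adjusted p = 0.0023), MCOLN1 (0.24, adjusted p = 0.00547), TFE3 (0.31, adjusted p = 0.00016), GAA, MAN2B1 and SGSH were then called higher as well. With the GC correction 19 were called higher and 2 lower, beside 17% and 29.6% of all genes, MCOLN1 and TFE3 among the higher, but LAMP1 was not (0.09, adjusted p = 0.29). GLB1 was called under neither. The 14 genes called over all libraries had a median transcript GC of 45.6% and a median SE of 0.067, and the 21 uncalled genes a median GC of 57.7% and a median SE of 0.114, so a difference of the same size was harder to call among the latter. The GC trend also fell in all 3 libraries of 20% O2 wo Doxy (-0.099, -0.086 and -0.15 log2 units per 10 points), the condition where the 14 were higher. All 14 stayed called higher after the GC correction. The part of GC content in these calls was not tested. By promoter, 2 of the 8 genes with CACGTG were called higher (CD63 and NEU1), 6 of the 17 tested genes without it, and 6 of the 10 tested genes that were not in the promoter table.

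At 3% O2, the same withdrawal of Doxy gave fewer calls: TPP1, NPC2 and PSAP were higher, and none of the 35 genes was called lower. The 3 called higher were 8.57% of those tested, beside 4.2% of all genes, with 3.11% of all genes called lower; at an unadjusted p under 0.05 there were 11 higher and 0 lower, and DESeq2 called 4 higher and 0 lower. None of the 3 reached 1.5-fold, beside 2.02% of all genes. The median log2 fold change was 0.17 over the lysosomal genes and 0.04 over all genes. TPP1 measured 129.2, 134.7 and 142.3 CPM in 3% O2 + Doxy and 168.5, 181.1 and 181.1 CPM in 3% O2 wo Doxy (log2 fold change 0.39, SE 0.0561, adjusted p = 0.0025). NPC2 measured 16.7, 19.4 and 17.5 CPM with Doxy and 21.7, 22.3 and 22.4 CPM without it (0.31, SE 0.0629, adjusted p = 0.015), and PSAP 364.4, 372.3 and 407.3 CPM with Doxy and 427.5, 486.7 and 461.5 CPM without it (0.27, SE 0.0632, adjusted p = 0.028). In all 3 genes each library without Doxy was above each with it.

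The other genes with full values showed smaller separations at 3% O2. HEXA measured 43.4, 43.7 and 47.0 CPM with Doxy and 45.6, 53.1 and 51.8 CPM without it (0.17, adjusted p = 0.18), and ASAH1 38.4, 39.6 and 34.4 CPM with Doxy and 46.7, 40 and 42.9 CPM without it (0.21, adjusted p = 0.097). LAMP2 measured 96.4, 93.3 and 81.6 CPM with Doxy and 106.2, 100.3 and 107.6 CPM without it (0.21, adjusted p = 0.2). ASAH1 and LAMP2 did not overlap between the conditions, and HEXA did. LAMP1 measured 268.8, 282.8 and 313.2 CPM with Doxy and 253.0, 310.4 and 291.9 CPM without it (-0.02), and GM2A 28.5, 28.0 and 27.8 CPM with Doxy and 27.5, 28.1 and 27.6 CPM without it (-0.02). MCOLN1 measured 16.4, 17.2 and 23.6 CPM with Doxy and 21.6, 22.5 and 21.6 CPM without it (0.20), and TFE3 125.0, 125.9 and 156.8 CPM with Doxy and 146.7, 180.7 and 163.1 CPM without it (0.27, adjusted p = 0.19). The third library with Doxy, 1 of those that stood apart, was the high one in both. TFEB measured 0.259, 0.344 and 0.323 CPM with Doxy and 0.282, 0.476 and 0.655 CPM without it, on 7 to 21 reads.

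The counts at 3% O2 depended on single libraries. Without 3% O2 + Doxy replicate 3 there were 5 calls, beside 5.15% of all genes higher and 4.13% lower. Without 3% O2 + Doxy replicate 1 or 3% O2 wo Doxy replicate 2 or 3 there was 1, TPP1. In those fits 2.17% to 2.61% of all genes were called higher and 1.25% to 1.82% lower. Leaving out the 3 libraries that stood apart together gave 14 higher and 1 lower (PPT1). Of all genes, 15.9% were then called higher and 16.6% lower. MCOLN1 (0.35, adjusted p = 0.0018), TFE3 (0.42, adjusted p = 0.00015) and HEXA (0.23, adjusted p = 0.008) were now called. This setting kept 3% O2 wo Doxy replicate 2, where the deviation rose with GC content. The GC correction gave 7 higher and 0 lower, beside 7.67% and 9.09% of all genes. TFE3 was then called at 0.18 (adjusted p = 0.0025), and MCOLN1 (0.10, adjusted p = 0.35) and HEXA (0.165, adjusted p = 0.12) were not. The part of GC content in these calls was not tested. Fitting the 6 libraries at 3% O2 alone left TPP1, beside 0.906% of all genes called higher and 0.456% lower.

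The response to FDX2 loss was smaller at 3% than at 20% O2 for 7 of the 35 genes, and larger for none; for the difference of the 2 responses, 4.08% of all genes were called lower and 3.21% higher. No gene had an unadjusted p under 0.05 in the higher direction, and DESeq2 called 8 lower and 0 higher. TPP1 showed the widest gap: its log2 response was 1.05 at 20% O2 and 0.39 at 3% O2, a difference of -0.67 (SE 0.0794, adjusted p = 0.0011). NPC2 (-0.54, SE 0.0884, adjusted p = 0.0051), HEXA (-0.52, SE 0.0971, adjusted p = 0.01), ASAH1 (-0.45), PSAP (-0.44), IDS (-0.44) and ATP6V1A (-0.30) followed. All 7 were among the genes called higher at 20% O2. The response at 20% O2 is subtracted in this difference, so the overlap of these calls is not independent. Of the 35 genes, only TPP1 was called with a difference of at least 1.5-fold, beside 3.11% of all genes. The other 7 genes called at 20% O2 (IDUA, NEU1, LAMP2, CD63, MANBA, SCARB2 and ATP6V0A1) had differences from -0.33 to -0.19 that were not called, so a smaller response at 3% O2 was not shown for them. For GLB1 the difference was -0.06, with a 95% interval of -0.28 to 0.16.

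TPP1, NPC2, HEXA and PSAP were called under each alternative setting of this difference with a call at 0.05. ATP6V1A, IDS and ASAH1 were not: all 3 calls were lost without any 1 of the 3 libraries of 20% O2 wo Doxy or without 3% O2 + Doxy replicate 1 or 2, leaving 4 genes. In these fits 1.83% to 2.56% of all genes were called lower. ASAH1 was also lost without 20% O2 + Doxy replicate 2 or 3% O2 wo Doxy replicate 2, and ATP6V1A without those, without 20% O2 + Doxy replicate 1 and without 3% O2 wo Doxy replicate 1 or 3. Without the 3 libraries that stood apart, 10 genes were called lower and 2 higher (ARSA and NAGLU), beside 10.7% and 16.6% of all genes. After the GC correction 7 genes were again called lower, beside 5.18% of all genes, but ASAH1 (-0.267, adjusted p = 0.063) and ATP6V1A were lost and ATP6V0A1 and MAN2B1 were gained.

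**Figure D2:**
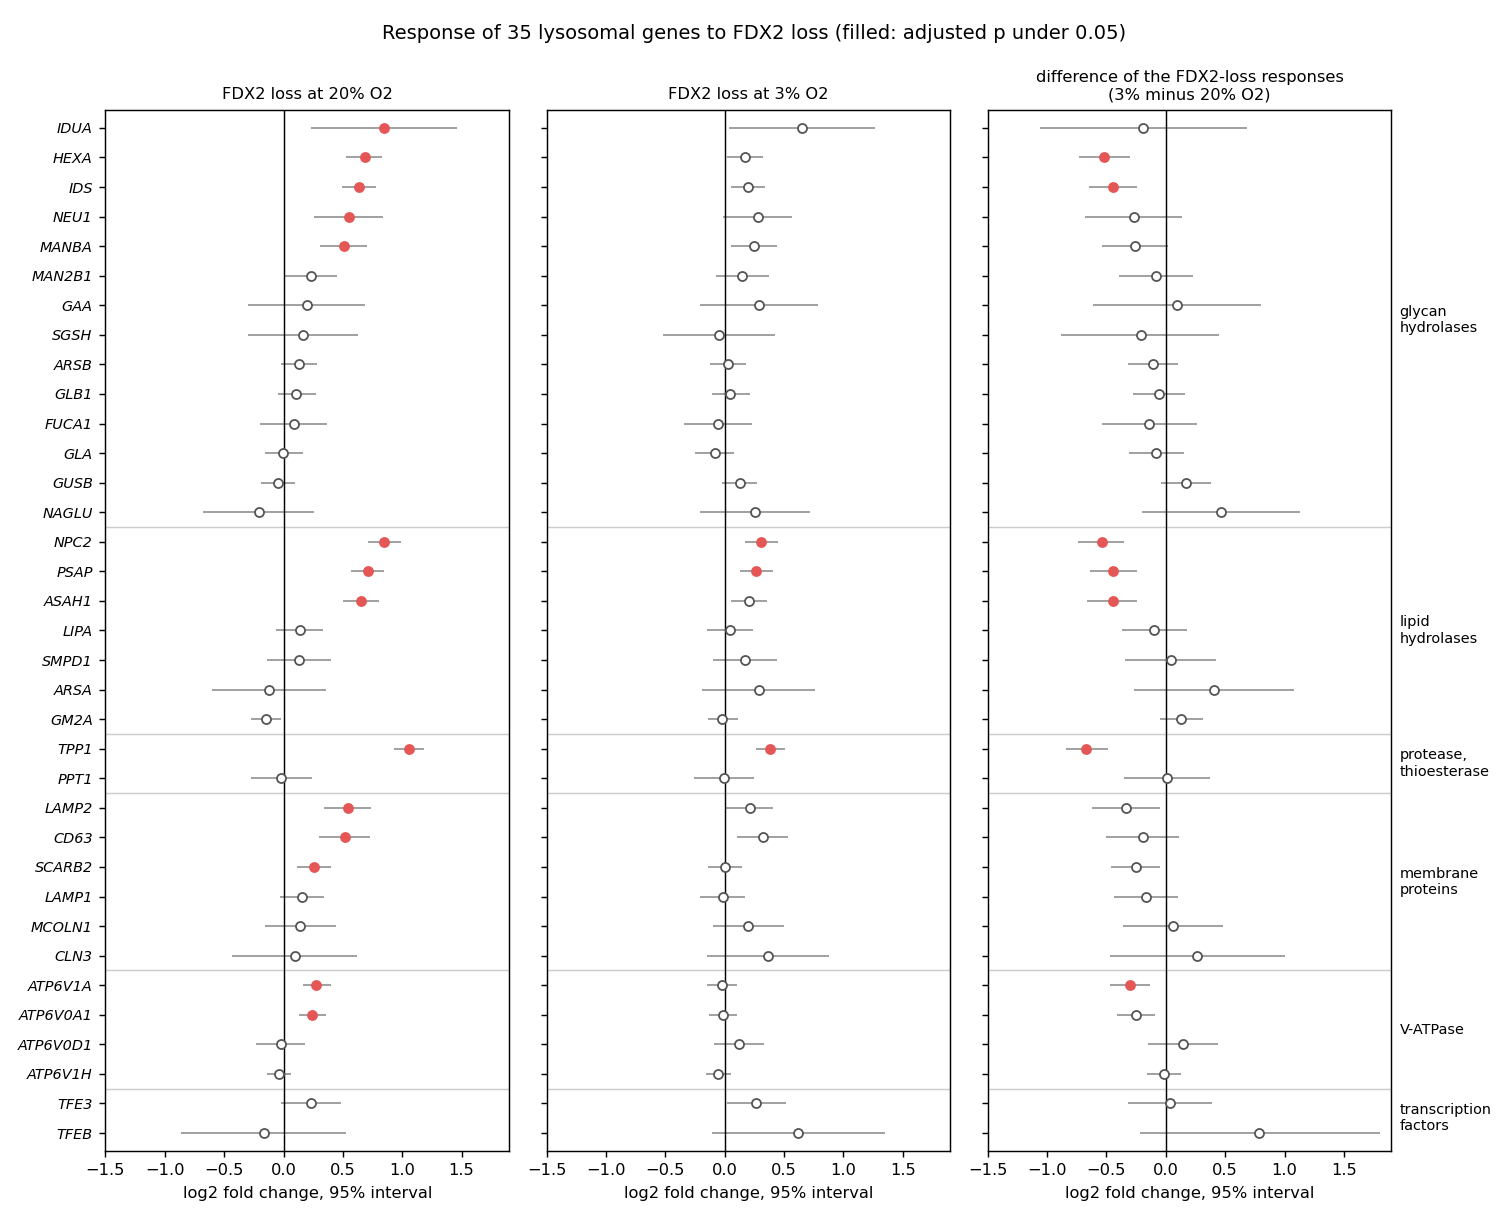
Log2 fold change after FDX2 loss at 20% O2 (left) and at 3% O2 (middle) and the difference of these responses (right), with 95% intervals, for the 35 tested lysosomal genes grouped by role; filled points have an adjusted p under 0.05. The left panel holds 14 filled points, all above 0, the middle 3, all above 0, and the right 7, all below 0.

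With Doxy present, TPP1 was the only lysosomal gene called between the oxygen levels. It was higher at 3% than at 20% O2 by 0.38 (SE 0.0563, adjusted p = 0.0045), with 129.2 to 142.3 CPM at 3% and 100.2 to 108.5 CPM at 20% O2. Of all genes, 1.63% were called higher and 0.385% lower, and 1.08% also differed by at least 1.5-fold, which no lysosomal gene did; edgeR gave 4 lysosomal genes higher and 0 lower at an unadjusted p under 0.05, and DESeq2 called 2 higher and 0 lower. The other values ranged from -0.70 for TFEB (not called, adjusted p = 0.39) to 0.31 for CLN3. In a fit of the 6 libraries with Doxy alone, TPP1 missed the threshold (0.37, adjusted p = 0.074).

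Without Doxy, the oxygen comparison ran the other way for most called genes: 8 were lower at 3% than at 20% O2 and 1 was higher. Those lower were 22.9% of the 35 tested, beside 11.9% of all genes, and the 1 higher 2.86%, beside 13.9%. None changed by 1.5-fold, beside 7.92% of all genes. The genes called lower were NPC2 (-0.47, SE 0.0619, adjusted p = 0.00045), HEXA (-0.44, SE 0.0684, adjusted p = 0.0012), ASAH1 (-0.43, SE 0.0681, adjusted p = 0.0012), ATP6V1A (-0.35), LAMP2 (-0.33), TPP1 (-0.29), PSAP (-0.28) and IDS (-0.24). HEXA stood at 67.0, 71.7 and 65.2 CPM at 20% O2 and at 45.6, 53.1 and 51.8 CPM at 3% O2. GM2A was the gene called higher (0.19, SE 0.0572, adjusted p = 0.031), from 23.5, 24.6 and 24.7 CPM to 27.5, 28.1 and 27.6 CPM. This comparison and the 2 responses to FDX2 loss share libraries, so that they are not independent of each other.

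TPP1 was called in opposite directions in the 2 oxygen comparisons, higher at 3% O2 with Doxy and lower without it, and its 4 conditions did not overlap, in the order 20% O2 + Doxy, 3% O2 + Doxy, 3% O2 wo Doxy and 20% O2 wo Doxy. PSAP had the same order without overlap. For NPC2 and ASAH1 the 2 conditions with Doxy overlapped, and for HEXA the conditions 3% O2 + Doxy and 3% O2 wo Doxy did as well. The 8 genes lower without Doxy were all among the 14 called higher at 20% O2 after FDX2 loss.

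Libraries with the same replicate number deviated together in all 3 pairs in this comparison alone (correlations of 0.247 to 0.363). With 3 libraries per condition and every pair of conditions looked at, this does not show that they were paired. With the number as a block over all libraries, LAMP2 (adjusted p = 0.053), IDS and GM2A (adjusted p = 0.057) missed the threshold and 6 genes were called lower. In that fit 9.21% of all genes were called lower and 9.76% higher. With the block on the 6 libraries without Doxy 10 were called lower and 3 higher, beside 14.1% and 17% of all genes. The GM2A call was also lost when any 1 of the 6 libraries compared was left out, and DESeq2 did not make it. The LAMP2 call was lost without any 1 of the 3 libraries of 20% O2 wo Doxy or 3% O2 wo Doxy replicate 2, and the IDS call without 20% O2 wo Doxy replicate 2 or 3 or 3% O2 wo Doxy replicate 2 or 3. After the GC correction LAMP2 was at -0.075 (adjusted p = 0.14) and ASAH1 at -0.174 (adjusted p = 0.054), and these and IDS were no longer called, while MAN2B1, SGSH and TFE3 were called lower, so that 8 were again lower, beside 8.57% of all genes, and GM2A higher, beside 26.9%. Leaving out the 3 libraries that stood apart gave 14 lower and 6 higher, beside 22.1% and 24.6% of all genes.

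**Figure D3:**
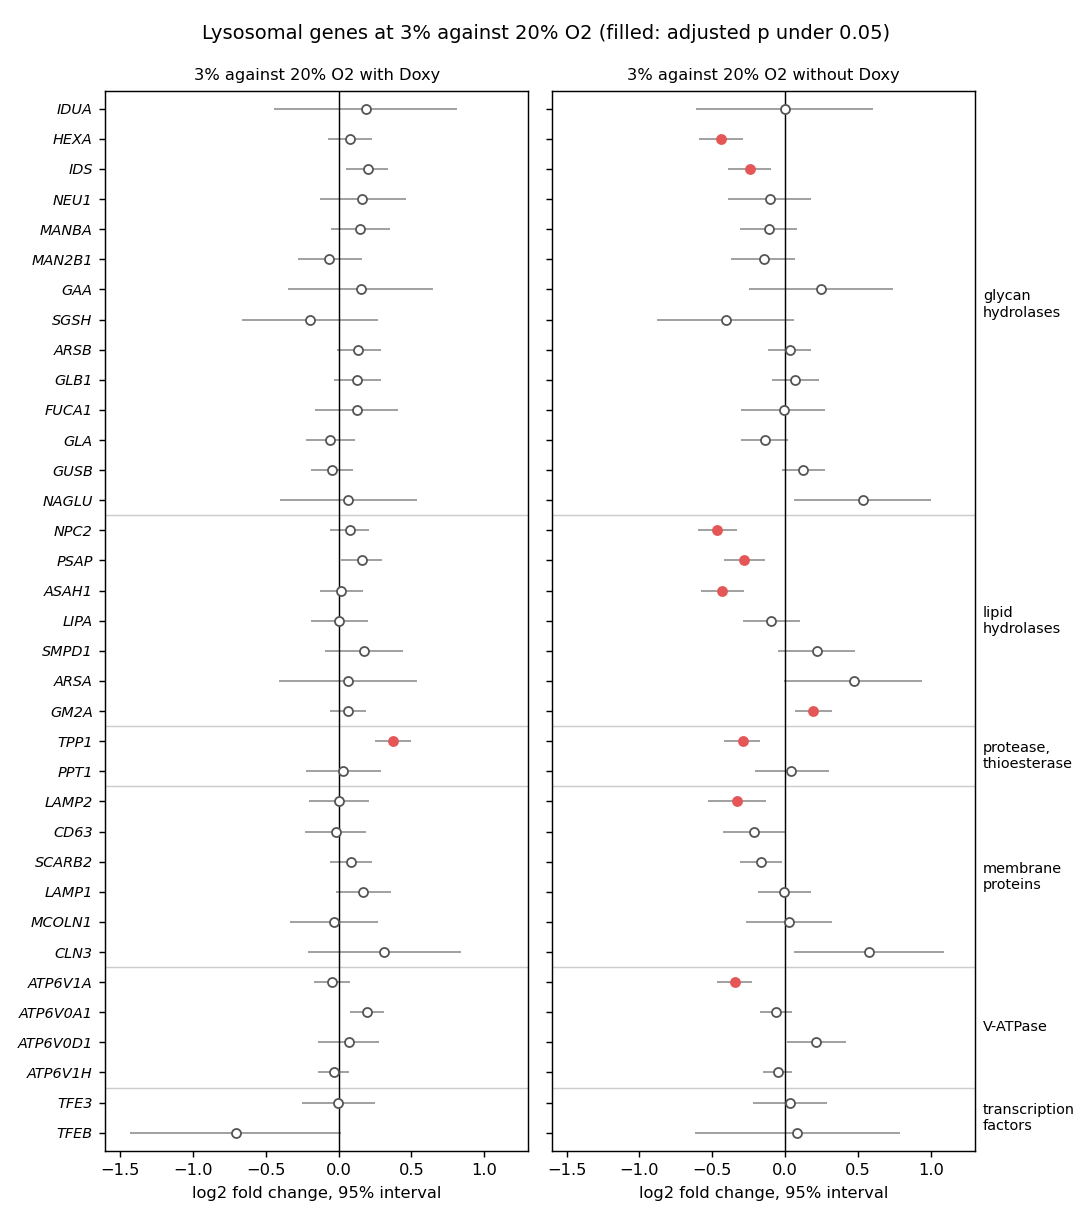
Log2 fold change at 3% against 20% O2 with Doxy (left) and without Doxy (right), with 95% intervals, for the 35 tested lysosomal genes grouped by role; filled points have an adjusted p under 0.05. TPP1 is the only filled point on the left, above 0, and the right panel holds 8 filled points below 0 and 1 above, GM2A.

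Genes of the same organelle and of its control that are not among the 37 were read from 6 further lists of 101 genes, 94 of them tested. At 20% O2, 38 of the 94 were called higher after FDX2 loss and 9 lower, beside 17.6% and 17.7% of all genes. Their median log2 fold change was 0.18, beside 0.01 over all genes. At 3% O2 there were 8 higher and 1 lower, beside 4.2% and 3.11% of all genes. For 3% against 20% O2 with Doxy there were 2 higher and 0 lower, beside 1.63% and 0.385%. Without Doxy there were 3 higher and 25 lower, beside 13.9% and 11.9%. For the difference of the responses there were 1 higher and 12 lower, beside 3.21% and 4.08%. These lists too were chosen with earlier results of these data known.

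Of the V-ATPase subunits outside the set, 8 of 16 were called higher at 20% O2 and 2 lower. The shares of all genes beside this and each list below were 17.6% higher and 17.7% lower. ATP6V1F (0.55), which links the catalytic head to the shaft, and ATP6V1B2 (0.51), a subunit of the head, were higher, while TCIRG1, an osteoclast-type subunit of the membrane sector, was lower (-0.73, adjusted p = 0.04). ATP6V0D2 had the largest value (3.47, SE 0.505, adjusted p = 0.00021). Of the other lumenal enzymes, 9 of 24 were higher and 2 lower, with ARSG, a sulfatase, at 1.15 and ACP5, an acid phosphatase, at 0.75, and with HYAL2, a hyaluronidase, at -0.70 and ACP2, an acid phosphatase, at -0.45. Of the other membrane proteins, 7 of 17 were higher and 1 lower, including the amino acid transporters SLC36A1 (0.73) and SLC38A9 (0.59) and NPC1, the partner of NPC2 (0.53), against TPCN2, a cation channel (-0.59).

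Of the 7 genes for mannose 6-phosphate tagging and sorting, GNPTG (0.50), a subunit of the tagging enzyme, and SUMF1 (0.23), which activates sulfatases, were higher and SORT1 (-0.18), a sorting receptor, lower at 20% O2. Among 14 TFEB relatives and genes of their control, 5 were higher and 2 lower: the RAG GTPases RRAGC (0.78, adjusted p = 7.3e-05) and RRAGB (0.69) and folliculin, FLCN (0.61), rose, and MTOR (-0.32) and LAMTOR2 (-0.30) fell. Of 16 autophagy genes, 7 were higher and 1, ATG16L1, lower (-0.22). GPNMB, a membrane glycoprotein listed with them, rose by 2.40 (adjusted p = 1.8e-08), GABARAPL1, an ATG8-family protein of the autophagosome, by 1.48 and SQSTM1, the cargo receptor p62, by 1.26. Their responses at 3% O2 were 1.13, 0.68 and 0.35, the last not called, and the difference between the oxygen levels was called for all 3 (-1.27, -0.80 and -0.92). RRAGC and NPC1 also had a called difference (-0.58 and -0.43).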

How the data were processed

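Libraries of poly(A)-selected RNA, 12 in 4 conditions, were sequenced on a DNBSEQ-T7 (150 bp reads). Per the labels, the authors used STAR and featureCounts on GRCh38 and deposited raw counts per gene, the unit used here; versions and the strand setting are not given in the sources used here, so reads of overlapping genes on opposite strands cannot be told apart. Identifiers (58735, all in GENCODE 29) were given symbols from a gene name table. Genes with too few counts were removed by filterByExpr (minimum count 10), leaving 16891 of the 32966 with a count. edgeR 4.0.16 (R 4.3.3) fitted 4 condition means to all 12 libraries with TMM scaling and the quasi-likelihood test, with Benjamini-Hochberg adjustment over all genes tested; the script was tested on simulated data. The residual degrees of freedom were 8 and the common biological coefficient of variation was 16.3%. Library totals of 24958386 to 34313637 counts set the precision, and TFEB, IDUA and CLN3 were measured with few reads.

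The lysosomal genes and the other lists were chosen with earlier results of these data known. Values in every library are given for GLB1, LAMP1, LAMP2, TFEB, TFE3 and MCOLN1 and, per comparison, for up to 3 called genes in each direction with the largest change and a mean of at least 5 CPM. From each other list up to 3 called genes in each direction are named for 20% O2; some listed genes are not reported here. Alternatives were DESeq2 size factors and its Wald test (DESeq2 1.42.0), other filters, compared libraries alone, the replicate number as a block, a GC correction, a 1.5-fold limit, an adjusted p under 0.01 and leaving out each library. Same-numbered libraries deviated together in all 3 pairs only between 20% O2 wo Doxy and 3% O2 wo Doxy (correlations of 0.247 to 0.363, against -0.432 to 0.076 for other pairs).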

Additional observations from a re-analysis of the deposited data

Results flagged for a closer look

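The test of the difference between the responses at 3% and 20% O2, over the 35 tested lysosomal genes, marked 7 genes: TPP1 (-0.669 on the log2 scale), NPC2 (-0.541), HEXA (-0.517), ASAH1 (-0.448), PSAP (-0.441), IDS (-0.441) and ATP6V1A (-0.302). In each the rise after FDX2 loss was smaller at 3% O2. The cells at 3% O2 had been without Doxy for 7 days in all and those at 20% O2 for 6, and this cannot be told apart from the oxygen level. Dixon's test for a single outlying value was not applied to groups of 3 libraries.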

How the results depend on the processing

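For FDX2 loss at 20% O2, 14 lysosomal genes were called, 22 with the replicate block, GC correction and compared libraries alone, 7 at 1.5-fold, and 12 to 16 without 1 library each. Shares of all genes called are given for each comparison, those higher first and those lower second. Here they were 17.6% and 17.7% over all libraries, and 19.5% and 33.1% in the setting with 22. At 1.5-fold 13.6% were called in either direction. Without 1 library each the shares were 12.1% to 15.3% and 12.6% to 16.9%. At 3% O2, 3 were called, 1 with no filter, 1 with the compared libraries alone, 0 with those and the replicate block, 1 with those, the block and the GC correction, 7 with the GC correction, 15 without the 3 libraries that stood apart, 0 at 1.5-fold, 1 at an adjusted p under 0.01, and 1 to 5 without 1 library each. The shares were 4.2% and 3.11% over all libraries, 1.06% and 1% with no filter and 0.906% and 0.456% with compared libraries alone. Adding the block gave 0.00625% and 0%, and the block with the GC correction 1.23% and 1.17%. The GC correction by itself gave 7.67% and 9.09%, and leaving out the 3 libraries 15.9% and 16.6%. At 1.5-fold the share was 2.02% in either direction. Without 1 library each the shares were 1.98% to 5.15% and 1.25% to 4.13%. For 3% against 20% O2 with Doxy, 1 was called, 2 with DESeq2's test, 0 with the compared libraries alone, with or without the replicate block or the block and GC correction, 4 with the GC correction, 2 without the 3 libraries and 0 at 1.5-fold, always 1 without 1 library each. The shares were 1.63% and 0.385% over all libraries, 2.41% and 1.19% with DESeq2's test and 0.747% and 0.0565% with compared libraries alone. Adding the block gave 0.0753% and 0%, and the block with the GC correction 0.74% and 0.0439%. The GC correction by itself gave 4.32% and 1.37%, and leaving out the 3 libraries 3.12% and 2.63%. At 1.5-fold the share was 1.08% in either direction. Without 1 library each the shares were 0.995% to 1.65% and 0.0977% to 0.589%. Without Doxy, 9 were called, 20 without the 3 libraries, 0 at 1.5-fold, and 6 to 9 without 1 library each. The shares were 13.9% and 11.9% over all libraries and 24.6% and 22.1% without the 3 libraries. At 1.5-fold the share was 7.92% in either direction. Without 1 library each the shares were 6.79% to 13.7% and 6.62% to 10.7%. For the difference of the responses, 7 were called, 4 with the replicate block, 12 without the 3 libraries, 1 at 1.5-fold, 2 at an adjusted p under 0.01, and 4 to 7 without 1 library each. The shares were 3.21% and 4.08% over all libraries, 1.37% and 2.27% with the replicate block and 16.6% and 10.7% without the 3 libraries. At 1.5-fold the share was 3.11% in either direction. Without 1 library each the shares were 1.18% to 7.23% and 1.83% to 5.43%. Shares at an adjusted p under 0.01 are not reported here. Directions reversed for genes not called over all libraries: TFE3, 3% against 20% O2 without Doxy, went to -0.142 with the GC correction, and with the block, compared libraries alone and GC correction to -0.157, with MCOLN1 at -0.209. The causes were not tested.

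Over all genes, the GC correction moved the calls at 20% O2 from 2971 higher and 2990 lower to 2868 and 4998, at 3% O2 from 709 and 526 to 1296 and 1535, without Doxy between oxygen levels from 2348 and 2012 to 4539 and 1448, and for the difference from 542 and 689 to 2340 and 875. Leaving out the 3 libraries moved the split with Doxy from 276 higher and 65 lower to 533 and 449, and for the difference to 2832 and 1823. Apart from the comparison without Doxy, same-numbered libraries did not deviate together in all pairs (same-number correlations of -0.772 to 0.629). In the comparison without Doxy the block measures only a shared number. TFEB, with 7 to 21 reads, is limited by depth.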
